A study of Mus musculus with 16 samples.

Results

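The interferon response and antigen processing module is a list of 34 genes that type I or type II interferon is known to induce, from RNA sensors to the immunoproteasome. Its members were taken by symbol from the annotation of the array, with the brightest probe set where a gene had several. Of the 34, 30 could be measured, out of 19938 genes in all, and each of the 30 rested on a single probe set. Isg15, Igtp and Gbp2 were read only by probe sets that also match another gene (Gm9706, Irgm2 and Gbp2b), and Ifi44 was not analysed here.

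The livers came from 16 male mice aged 4 months, with 1 Affymetrix mouse gene array per liver and 4 separate mice in each of 4 groups. The heterozygotes were Mut +/-;TgINS-MCK-Mut and the mutants Mut -/- ;TgINS-MCK-Mut. The transgene, present in every group, places Mut (now Mmut, methylmalonyl-CoA mutase) under MCK, the muscle creatine kinase promoter, so that the enzyme is supplied to muscle and not to the liver studied here. Unfasted mice of both genotypes were on a normal diet. Fasted heterozygotes had gone 12 hours without food and fasted mutants 8 to 12 hours, so in the fasted state genotype and length of fast cannot be told apart. The study concerns methylmalonic acidemia, the disease caused by loss of this enzyme. Values are RMA signals on the log2 scale, and a difference of 1 is a 2-fold change.

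Cells detect foreign or misplaced nucleic acid through sensors such as RIG-I and MDA5 and secrete type I interferon. Interferon binds a receptor shared by most cell types, and a complex that holds Stat2 and Irf9 then switches on genes that carry an interferon-stimulated response element. Interferon gamma acts at a second element, called GAS, and raises the proteasome subunits and the peptide transporter that load class I molecules. In liver, hepatocytes, Kupffer cells and endothelial cells all respond.

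Promoter windows are shown for the genes that passed a test and held a match to either element, because these letters are the textbook link between a gene and interferon. RefSeq windows (build GRCm38.p6, from 250 bases before to 50 after the start) were found for 25 of the 34 members. Of the 8 members that passed at least 1 test, Ifit1, Irgm1, Oasl1, Psmb8 and Tap1 had a window. The core of the response element, GAAA and GAAA with any 2 bases between, was searched on both strands. It stood in 13 of the 25 members, against 3.44% of 32851 windows of the table. TTCNNNGAA, the GAS core, which reads the same on both strands, stood in 5, against 8.3% of windows. Members were counted by gene, with a match in any of their windows (28 for the 25), while the shares are of single windows. The members were listed because interferon is known to induce them, so these counts are no result of the arrays. Where 2 matches overlap they share capitals, and in Bst2 a GAS match overlapped a response-element match. Among the 5, Ifit1 and Irgm1 held the first motif and Psmb8 the second, and neither set of letters was present in the windows of Oasl1 and Tap1. Capitals below mark the matches.
Ifit1, chr19:34640639-34640938, plus strand: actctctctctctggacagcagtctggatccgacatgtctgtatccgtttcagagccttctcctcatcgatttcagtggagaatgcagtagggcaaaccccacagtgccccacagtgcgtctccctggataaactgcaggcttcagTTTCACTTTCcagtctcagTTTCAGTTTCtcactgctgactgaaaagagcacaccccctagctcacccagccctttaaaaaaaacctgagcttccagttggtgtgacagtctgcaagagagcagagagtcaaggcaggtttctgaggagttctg
Irgm1, chr11:48871371-48871670, minus strand: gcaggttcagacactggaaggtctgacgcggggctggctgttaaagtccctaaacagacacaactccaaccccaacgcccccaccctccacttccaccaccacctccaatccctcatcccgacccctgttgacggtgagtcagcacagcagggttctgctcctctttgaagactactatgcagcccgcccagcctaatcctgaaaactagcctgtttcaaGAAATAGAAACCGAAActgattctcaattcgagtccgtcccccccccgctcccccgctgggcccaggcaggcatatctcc
Psmb8, chr17:34197945-34198244, plus strand: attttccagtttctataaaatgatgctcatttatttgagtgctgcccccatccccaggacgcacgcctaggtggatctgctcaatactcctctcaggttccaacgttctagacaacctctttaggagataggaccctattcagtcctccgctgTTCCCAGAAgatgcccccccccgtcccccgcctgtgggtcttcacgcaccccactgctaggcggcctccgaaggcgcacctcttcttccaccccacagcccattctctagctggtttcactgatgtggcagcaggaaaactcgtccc
The matches in Ifit1 are on the opposite strand and begin 104 and 85 bases before the start. Those in Irgm1 overlap and begin 30 and 24 bases before it, and the one in Psmb8 begins 97 bases before it. A match describes the letters only and was not tested for binding.

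Mmut matched the labels, with 8.04 ± 0.20 (SD, n = 4) in mutants and 9.82 ± 0.11 in heterozygotes when unfasted, and 8.09 ± 0.20 against 9.89 ± 0.15 after the fast. The 7 measured hepatocyte markers averaged 12.74 to 13.04 on every array. Unfasted mutant replicate 1 stood apart: 7 pancreatic acinar markers averaged 11.09 there and 6.94 to 7.21 elsewhere. Counts of member and list calls printed here that changed without it are given in both forms. Shares over all genes are those with all 16 arrays. Without it the calls over all genes went from 1584 to 1728 for unfasted genotype and from 2716 to 3180 for fasted genotype. On fasting in heterozygotes they went from 313 to 350. The labels give no batch or scan date.

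Most of the module was highest in the unfasted heterozygous liver. For 21 of 30 members that group had the highest mean of the 4, whereas 22.9% of all genes had their highest mean there. The lowest mean fell to fasted heterozygotes for 12 members, to fasted mutants for 10 and to unfasted mutants for 7, where the shares over all genes were 19.8%, 37.6% and 21.0%. Per array, the median deviation of the members from their own means (Usp18 left out) was 0.12 to 0.24 in unfasted heterozygotes. It was -0.10 to 0.11 in fasted heterozygotes, -0.21 to 0.14 in unfasted mutants and -0.19 to -0.02 in fasted mutants. The members were measured at mean values from 5.69 for Mx1, an antiviral GTPase, to 9.87 for Stat2, and 22 of 30 were brighter than the median gene.

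**Figure D1:**
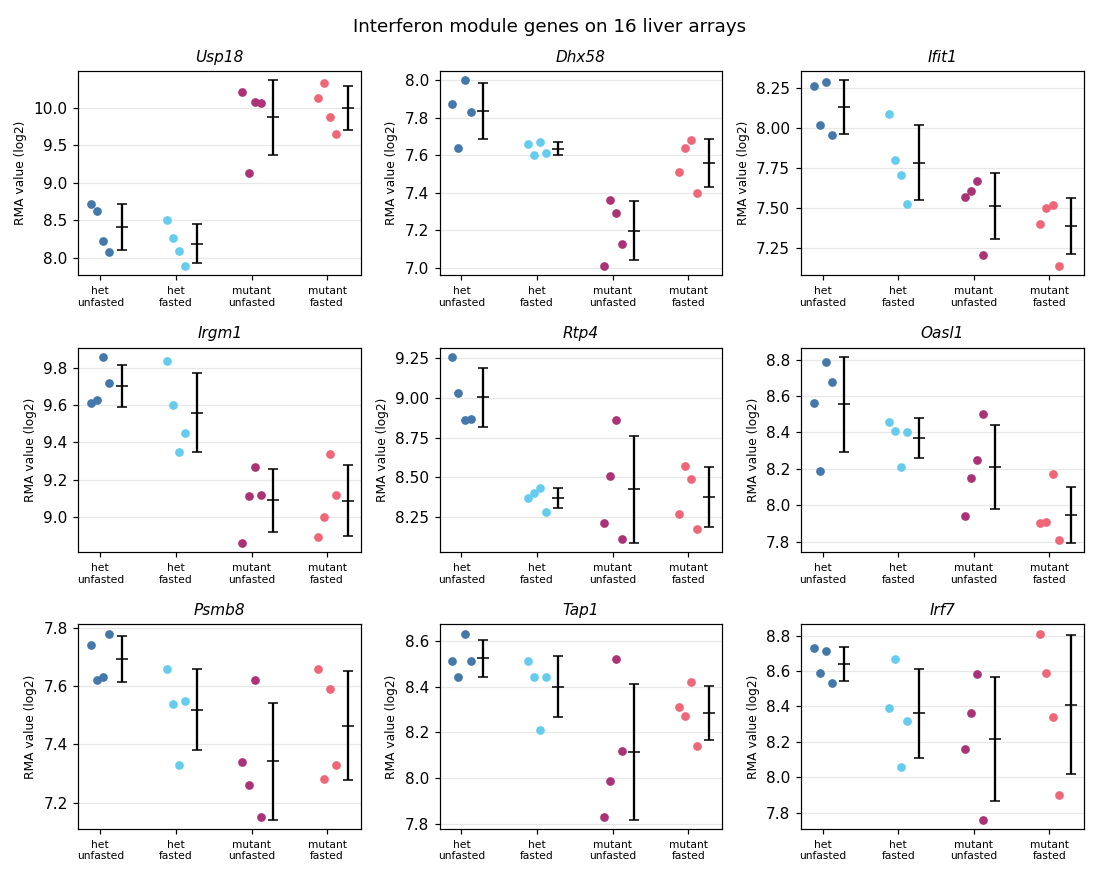
RMA value (log2) of 9 members on each of the 16 arrays, by group, with points in replicate order and the mean ± SD beside them. Usp18 lies at 9.13 to 10.33 on the mutant arrays and 7.89 to 8.72 on the heterozygous ones, while Dhx58, Ifit1, Irgm1 and Psmb8 are highest in unfasted heterozygotes.

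Mutant was first set against heterozygous liver in the unfasted state. Of the 30 members 6 fell (Dhx58, Ifit1, Irgm1, Rtp4, Tap1 and Psmb8), or 20.0%, where 3.69% of all genes were called lower (limma, adjusted p under 0.05). Usp18 alone rose, 3.33% of members against 4.25% of all genes. The 4 mutant values lay wholly below the 4 heterozygous ones for Dhx58, Ifit1, Irgm1 and Psmb8, a count of 4 of 30 against 5.83% of all genes. They lay wholly above for Usp18 alone, 1 of 30 against 6.16%. The median difference over the members was -0.25, with 7 of 30 above 0, against a median of 0.01 and 52.4% above 0 over all genes. At an unadjusted p under 0.05 there were 14 members (46.7%, against 21.8% of genes). The shares over all genes printed here were not matched to the members for brightness. With only genes above the median brightness fitted, 1573 were called in either direction, against 1584 with all genes. The share called was thus larger in bright genes. Of the 22 members among them 1 was called higher and 4 lower.

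In the fasted state 3 members passed. Irgm1 and Oasl1 fell, 6.67% of members against 5.01% of all genes, and Usp18 again rose, against 8.62% of all genes called higher. Non-overlap with mutants below was seen for Ifit1, Irgm1, Mx2 and Oasl1, or 4 of 30, against 11.0% of all genes. With mutants above it was seen for Usp18 and Oasl2, 2 of 30 (6.67%) against 12.8%. The members' median was -0.05 (all genes -0.02) and 13 of 30 lay above 0, 43.3%, the same share as over all genes. The share of members lower in fasted mutants was thus near the background.

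**Figure D2:**
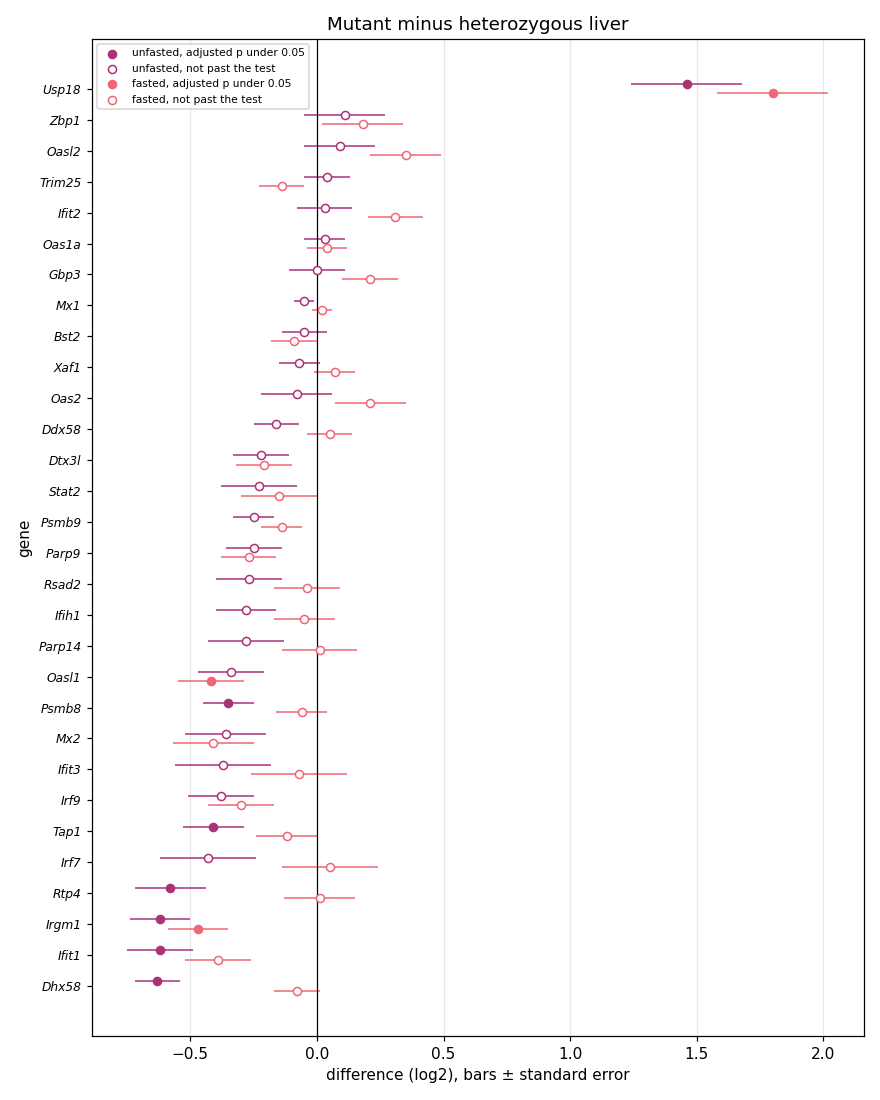
Difference of mutant minus heterozygous liver (log2, bars ± standard error) for the 30 members, unfasted and fasted, with filled points where the limma adjusted p was under 0.05. Usp18 lies far to the right in both states (1.46 and 1.80), and most unfasted points lie left of 0 (median -0.25).

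On fasting in heterozygotes most members had small negative differences. Only Rtp4 passed the test, 1 of 30 (3.33%) against 0.838% of all genes called lower, and no member was called higher, against 0.732% of all genes. With only genes above the median brightness fitted, Rtp4 was 1 of 22 members. There 397 genes were called in either direction, against 313 with all genes. The median difference was -0.20 with 3 of 30 above 0, against 0.01 and 53.7% over all genes. At an unadjusted p under 0.05 there were 13 members, 43.3% against 12.3% of genes. The fasted values lay below all unfasted ones for Bst2, Ddx58, Gbp3, Rtp4 and Xaf1, 5 of 30 against 5.11% of all genes. They lay above for Trim25 alone, 1 of 30 against 5.35%.

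In mutants Dhx58 alone rose on fasting, 1 of 30 against 2.33% of all genes, and no member fell, against 1.02%. Bst2 alone had all fasted values below the unfasted ones, 1 of 30 against 4.54% of all genes. Dhx58 alone had them all above, 1 of 30 against 5.49%. The median difference was -0.03 with 11 of 30 above 0 (36.7%), against -0.01 and 45.0% over all genes. An unadjusted p under 0.05 was seen for 2 members (6.67%, against 22.2% of genes). Mutants had fasted 8 to 12 hours and heterozygotes 12. Between genotypes, a difference in fasting response thus cannot be told apart from the length of fast. The interaction of genotype and fasting asked whether the fasting response itself differed. It was called for none of the 30 members by limma, against 0.0100% of all genes. Its median over the members was 0.21 with 25 of 30 above 0, where all genes had a median of -0.01 and 45.7% above 0. Only Dhx58 and Rtp4 had an unadjusted p under 0.05, 6.67% against 11.0% of genes. The comparisons share groups, so these counts are not independent of each other.

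**Figure D3:**
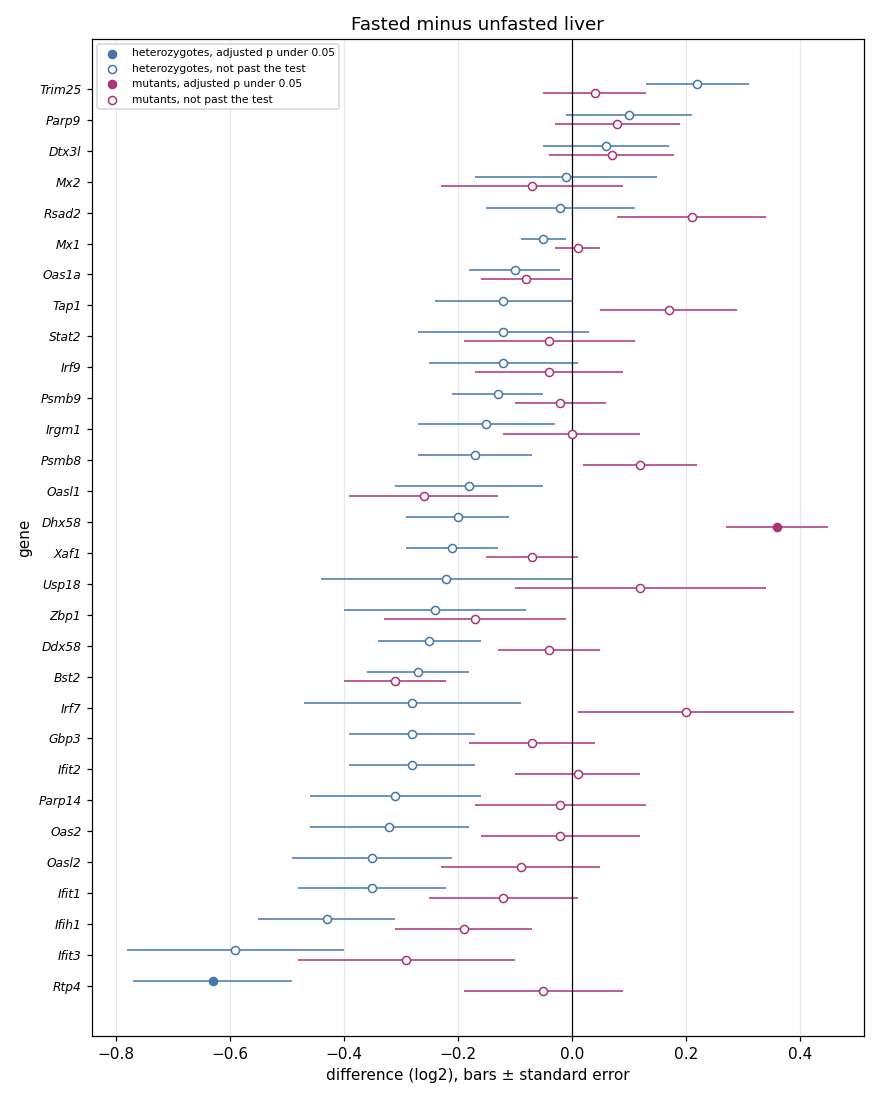
Difference of fasted minus unfasted liver (log2, bars ± standard error) for the 30 members in each genotype, with filled points where the limma adjusted p was under 0.05. In heterozygotes 27 of 30 points lie at or left of 0 and Rtp4 is lowest at -0.63, whereas in mutants the points centre near 0 with Dhx58 at 0.36.

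Among the sensors, Dhx58 encodes LGP2, a helicase that modulates RIG-I and MDA5. It read 7.87, 7.64, 8.00 and 7.83 in unfasted heterozygotes and 7.01, 7.36, 7.29 and 7.13 in unfasted mutants. After the fast it read 7.66, 7.60, 7.67 and 7.61 in heterozygotes and 7.51, 7.64, 7.68 and 7.40 in mutants. The unfasted mutants were thus below every other array, and the fasted groups overlapped. The fall in unfasted mutants was -0.63 ± 0.09 (SE, 1.55-fold, adjusted p = 6.1e-04). The rise on fasting in mutants was 0.36 ± 0.09 (1.28-fold, adjusted p = 0.033). The rise no longer passed when unfasted mutant replicate 4 or fasted mutant replicate 2 or 3 was left out, with adjusted p up to 0.096. Nor did it pass when only the 8 mutant arrays were fitted or with array weights (adjusted p up to 0.14). The interaction, 0.56 ± 0.12, did not pass (limma, adjusted p = 0.26).

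The other 4 sensors had no call. Ifih1 (MDA5, a sensor of long double-stranded RNA) differed by -0.28 ± 0.12 between unfasted genotypes and by -0.43 ± 0.12 on fasting in heterozygotes (adjusted p = 0.20 and 0.11). Both passed without unfasted heterozygous replicate 2, whose value of 9.18 lay under the 9.65 to 9.70 of its group, with adjusted p of 0.035 and 0.019. Ddx58 (RIG-I) and Zbp1, a sensor of Z-form nucleic acid, differed by -0.16 ± 0.09 and 0.11 ± 0.16 in the unfasted state. Trim25, the ubiquitin ligase that activates RIG-I, was the largest positive fasting difference in heterozygotes at 0.22 ± 0.09 (adjusted p = 0.28).

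Of the transcription factors, Irf7 amplifies type I interferon production. Its values were 8.73, 8.59, 8.71 and 8.53 in unfasted heterozygotes and 8.16, 8.36, 8.58 and 7.76 in unfasted mutants. In the fasted state they were 8.39, 8.67, 8.06 and 8.32 in heterozygotes and 8.81, 8.59, 8.34 and 7.90 in mutants. All 4 groups overlapped in part, and the mutant groups were widest, with an SD of 0.35 unfasted and 0.39 fasted. The unfasted difference of -0.43 ± 0.19 and the fasted one of 0.05 ± 0.19 did not pass (adjusted p = 0.19 and 0.88). Irf9, the DNA-binding partner of the Stats, differed by -0.38 ± 0.13 and -0.30 ± 0.13 (adjusted p = 0.089 and 0.14). Without unfasted mutant replicate 2 the first of these passed (adjusted p = 0.039). Stat2 differed by -0.23 ± 0.15 and -0.15 ± 0.15.

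Usp18 removes ISG15 from proteins and also binds the type I receptor to dampen its signal. It read 8.72, 8.62, 8.22 and 8.08 in unfasted heterozygotes and 10.21, 9.13, 10.08 and 10.06 in unfasted mutants. Fasted heterozygotes gave 8.51, 8.27, 8.09 and 7.89 and fasted mutants 10.13, 10.33, 9.87 and 9.65. Every mutant array lay above every heterozygous one. The rise was 1.46 ± 0.22 in the unfasted state (2.75-fold, 95% interval 0.99 to 1.93, adjusted p = 0.0013). In the fasted state it was 1.80 ± 0.22 (3.49-fold, 1.33 to 2.28, adjusted p = 1.9e-04). Fasting differences were small beside it, -0.22 ± 0.22 in heterozygotes and 0.12 ± 0.22 in mutants (adjusted p = 0.81 and 0.76).

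The Ifit genes encode proteins that bind viral RNA ends or translation factors. Ifit1, whose window is printed above, read 8.26, 8.02, 8.29 and 7.96 in unfasted heterozygotes and 7.57, 7.61, 7.67 and 7.21 in unfasted mutants. Fasted heterozygotes gave 8.09, 7.80, 7.71 and 7.53 and fasted mutants 7.40, 7.50, 7.52 and 7.14. The genotypes did not overlap in either state. The unfasted fall was -0.62 ± 0.13 (1.54-fold, adjusted p = 0.0084). The fasted difference of -0.39 ± 0.13 just missed the threshold (adjusted p = 0.051) but passed without unfasted mutant replicate 3 or 4 or fasted heterozygous replicate 4 (lowest adjusted p 0.033). It also passed with a replicate block, centred or requantiled arrays, array weights and bright genes alone (lowest adjusted p 0.0073).

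Ifit2 and Ifit3 had other patterns and no call. Ifit2 was dim (mean 6.22) and differed by 0.03 ± 0.11 unfasted and 0.31 ± 0.11 fasted (adjusted p = 0.93 and 0.064), and the latter passed without fasted mutant replicate 4 (adjusted p = 0.032). Ifit3 differed by -0.37 ± 0.19 and -0.07 ± 0.19, and by -0.59 ± 0.19 on fasting in heterozygotes (adjusted p = 0.14). Its spread within groups, 0.30, was among the widest of the members.

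Oas enzymes make a second messenger that activates RNase L, and Oasl1 is a relative without that activity. Oasl1 read 8.56, 8.19, 8.79 and 8.68 in unfasted heterozygotes and 7.94, 8.15, 8.25 and 8.50 in unfasted mutants. Fasted heterozygotes gave 8.46, 8.41, 8.21 and 8.40 and fasted mutants 7.90, 7.91, 8.17 and 7.81. The genotypes were apart only in the fasted state, where Oasl1 fell by 0.42 ± 0.13 on the log2 scale (1.34-fold, adjusted p = 0.040). That call was lost without replicate 1, 2 or 4 of either fasted group (adjusted p up to 0.098). The unfasted difference of -0.34 ± 0.13 (adjusted p = 0.12) passed when either unfasted mutant replicate 4 or replicate 2 of the unfasted heterozygotes was left out, with adjusted p down to 0.029.

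The other Oas members did not follow it. Oasl2 had fasted mutants above fasted heterozygotes without overlap, at 0.35 ± 0.14, but did not pass (adjusted p = 0.11). Oas1a and Oas2 differed by 0.03 ± 0.08 and -0.08 ± 0.14 in the unfasted state. Of the Mx GTPases, Mx2 had fasted mutants below fasted heterozygotes without overlap, at -0.41 ± 0.16 (adjusted p = 0.10). Mx1 stayed between 5.57 and 5.78 on all arrays, with the smallest within-group spread of the members (0.06).

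Rtp4 is an interferon-induced chaperone of G protein-coupled receptors that also restricts some RNA viruses. It read 9.26, 9.03, 8.86 and 8.87 in unfasted heterozygotes, 8.21, 8.51, 8.86 and 8.11 in unfasted mutants, 8.37, 8.40, 8.43 and 8.28 in fasted heterozygotes, and 8.27, 8.57, 8.49 and 8.17 in fasted mutants. Unfasted heterozygotes stood above nearly every other array, and only unfasted mutant replicate 3 reached them. The difference was -0.58 ± 0.14 for unfasted genotype (1.50-fold, adjusted p = 0.019, but 0.082 when only the 8 unfasted arrays were fitted) and -0.63 ± 0.14 for fasting in heterozygotes (1.55-fold, adjusted p = 0.032). The fasting call was lost without any 1 of the 8 heterozygous arrays, with adjusted p up to 0.095. The fasted genotypes differed by 0.01 ± 0.14, and the interaction was 0.59 ± 0.20 (adjusted p = 0.38).

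Of the remaining antiviral effectors, Bst2 (tetherin, which holds budding virus at the membrane) was lower after fasting in both genotypes without a call, at -0.27 ± 0.09 and -0.31 ± 0.09 (adjusted p = 0.20 and 0.075). Without unfasted mutant replicate 1 the mutant difference passed (adjusted p = 0.049). Rsad2 (viperin) and Xaf1, a regulator of cell death, differed by -0.27 ± 0.13 and -0.07 ± 0.08 between unfasted genotypes. Parp9 and its partner Dtx3l, a ubiquitin ligase, had similar differences, at -0.25 ± 0.11 and -0.22 ± 0.11 unfasted and -0.27 ± 0.11 and -0.21 ± 0.11 fasted. Parp14, which adds ADP-ribose to proteins, differed by -0.28 ± 0.15 and 0.01 ± 0.15. None of these passed.

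Irgm1 is an immunity-related GTPase that controls autophagy and defence against vacuolar pathogens. It read 9.61, 9.63, 9.86 and 9.72 in unfasted heterozygotes and 8.86, 9.11, 9.27 and 9.12 in unfasted mutants. Fasted heterozygotes gave 9.84, 9.60, 9.35 and 9.45 and fasted mutants 8.89, 9.00, 9.34 and 9.12. The genotypes did not overlap in either state, though the fasted groups came within 0.01. The falls were -0.62 ± 0.12 (1.53-fold, adjusted p = 0.0053) and -0.47 ± 0.12 (1.39-fold, adjusted p = 0.015). Fasting differences were -0.15 ± 0.12 in heterozygotes and -0.00 ± 0.12 in mutants. Gbp3, a guanylate-binding protein, showed 0.00 ± 0.11 unfasted and 0.21 ± 0.11 fasted.

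The antigen processing members act after interferon gamma. Psmb8 is the immunoproteasome subunit that replaces Psmb5. It read 7.74, 7.62, 7.63 and 7.78 in unfasted heterozygotes, 7.34, 7.26, 7.62 and 7.15 in unfasted mutants, 7.66, 7.54, 7.33 and 7.55 in fasted heterozygotes, and 7.66, 7.28, 7.59 and 7.33 in fasted mutants. The unfasted groups met at 7.62 to 2 decimals without crossing. The fall was -0.35 ± 0.10 (1.28-fold, adjusted p = 0.048). It kept its call on leaving out unfasted mutant replicate 3, fasted mutant replicate 1 or 2 or fasted heterozygous replicate 3, and lost it without any of the other 12 arrays (adjusted p up to 0.13). The call was also lost when only the 8 unfasted arrays were fitted and with no trend in the variance (adjusted p up to 0.074).

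Tap1 is a subunit of the transporter that carries peptides into the endoplasmic reticulum. It read 8.51, 8.44, 8.63 and 8.51 in unfasted heterozygotes, 7.83, 7.99, 8.52 and 8.12 in unfasted mutants, 8.51, 8.44, 8.21 and 8.44 in fasted heterozygotes, and 8.31, 8.27, 8.42 and 8.14 in fasted mutants. Unfasted mutant replicate 3 lay among the heterozygotes and the other mutants of its group below them. The fall was -0.41 ± 0.12 (1.32-fold, adjusted p = 0.042, but 0.13 when only the 8 unfasted arrays were fitted). It was lost without any 1 of 11 arrays, which included all 4 unfasted heterozygotes, unfasted mutant replicates 1, 2 and 4, fasted mutant replicate 2 and fasted heterozygous replicates 1, 2 and 4 (adjusted p up to 0.13). Psmb9, another immunoproteasome subunit, differed by -0.25 ± 0.08 (adjusted p = 0.078) and passed without unfasted mutant replicate 3 (adjusted p = 0.024). Without unfasted mutant replicate 1, the array with acinar transcripts, the unfasted count was 1 member higher and 4 lower, with Psmb8 and Tap1 lost.

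The members varied more between mice of a group than most genes. The within-group SD was above that of the median gene (0.10) for 29 of 30, up to 0.35 for Usp18. Genes of like brightness were not compared, and 22 of 30 members were brighter than the median gene. The arrays at the ends of the range were often the same across members. Unfasted mutant replicate 3 was the highest of its 4 for 17 members and replicate 4 the lowest for 15. Fasted mutant replicate 4 was lowest for 17, and fasted heterozygous replicate 1 was highest for 18. Unfasted heterozygous replicate 1 was highest for 15. These ranks were not counted over all genes, so whether they are particular to the members is not known.

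The counts of the other pathway lists can be read against the shares of all genes called. These were 4.25% higher and 3.69% lower for unfasted genotype, 8.62% and 5.01% for fasted genotype, 0.732% and 0.838% for fasting in heterozygotes, and 2.33% and 1.02% for fasting in mutants. Upstream of the members, none of 16 interferon ligand genes rose in any comparison. In fasted mutants against fasted heterozygotes 3 of 16 fell: the alpha-type gene Ifnab at -0.37 ± 0.07 (adjusted p = 0.0045), Ifnk at -0.19 ± 0.06 (0.036) and Ifnb1 at -0.17 ± 0.05 (0.027). Ifnl2 fell by 0.33 ± 0.07 on the log2 scale on fasting in mutants (adjusted p = 0.024), and without unfasted mutant replicate 1 that comparison had 4 ligand genes lower. Ifnb1 stayed between 6.20 and 6.49 and Ifng, interferon gamma, between 7.21 and 7.58 on all arrays. The table has no detection calls, so whether such dim genes were expressed is not known, and a change in them can be understated.

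Of 16 receptor, kinase and Stat genes, Ifngr1 and Ifngr2, both chains of the interferon gamma receptor, rose in unfasted mutants, and Ifngr1 and Il10rb rose in fasted ones. None fell in any comparison. Ifngr1 read 9.89, 10.02, 9.63 and 9.85 in unfasted heterozygotes and 10.65, 10.46, 10.45 and 10.14 in unfasted mutants, with no overlap. Its rise was 0.58 ± 0.11 unfasted (adjusted p = 0.0042) and 0.70 ± 0.11 fasted (adjusted p = 8.7e-04). Ifngr2 rose by 0.44 ± 0.09 unfasted (adjusted p = 0.0098). Il10rb, a chain shared by the receptors of interferon lambda and interleukin 10, rose by 0.92 ± 0.15 in the fasted state (adjusted p = 0.0015). Ifnar1, a chain of the type I receptor, differed by -0.02 ± 0.07 and 0.17 ± 0.07 without a call.

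Among 20 sensing and induction genes outside the module, Irf2, a factor that opposes Irf1, fell in mutants in both states, at -0.35 ± 0.08 and -0.38 ± 0.08 (adjusted p = 0.018 and 0.0084). In the fasted state 5 of 20 rose. The 4 with the largest rises were Aim2, a DNA sensor, at 0.56 ± 0.11 (adjusted p = 0.0047), Tlr7, an RNA sensor of endosomes, at 0.52 ± 0.15 (0.032), and Irf8 and Sting1 at 0.46 ± 0.09 (0.0049) and 0.46 ± 0.13 (0.026). Without unfasted mutant replicate 1, Sting1 also passed in the unfasted state. On fasting in mutants Traf6, a signalling adaptor, rose by 0.25 ± 0.06 (adjusted p = 0.025).

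A further 43 interferon-induced genes outside the module were measured. In the unfasted genotype comparison 5 fell and 1 rose. Ifi27, a mitochondrial interferon-induced protein, read 10.51, 10.31, 10.22 and 10.35 in unfasted heterozygotes and 9.00, 9.00, 9.34 and 9.42 in unfasted mutants. The fall was -1.16 ± 0.13 (2.24-fold, adjusted p = 1.5e-04), larger than that of any of the 30 members. Nmi, an interferon-induced Stat partner, fell by 0.47 ± 0.10 (adjusted p = 0.0089), Eif2ak2 (the kinase PKR) by 0.41 ± 0.09 (0.012) and Ifi35, which binds Nmi, by 0.37 ± 0.07 (0.0055), all on the log2 scale. The median over the list was -0.04. Without unfasted mutant replicate 1 there were 2 higher, Ifitm1 and Ifi27l2a.

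In the fasted state the same list had 9 genes higher and 2 lower in mutants, with a median of 0.11. The largest rises were Slfn5 at 0.55 ± 0.10 (adjusted p = 0.0028), Lgals3bp, a secreted glycoprotein, at 0.55 ± 0.15 (0.029), Ifi203 at 0.52 ± 0.16 (0.039) and Ube2l6, the conjugating enzyme of ISG15, at 0.51 ± 0.14 (0.025). Ifi27 and Iigp1, an immunity-related GTPase, fell, by 0.64 ± 0.13 (0.0059) and 0.30 ± 0.09 (0.043) on the log2 scale. On fasting, Tor3a rose in both genotypes, by 0.67 ± 0.14 in heterozygotes (adjusted p = 0.025) and 0.74 ± 0.14 in mutants (0.013). Leaving out unfasted mutant replicate 1 gave 10 higher in the fasted genotype comparison, with Ifi27l2a added, and 1 lower, Ifitm3, on fasting in mutants. In heterozygotes Gbp7 and Ifi35 fell, by 0.61 ± 0.13 and 0.35 ± 0.07 on the log2 scale (adjusted p = 0.032 and 0.018). Without unfasted mutant replicate 1 there were 3 lower on fasting in heterozygotes, with Ifitm3 added.

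Of 12 class I genes, 2 chaperones of the endoplasmic reticulum fell in unfasted mutants. Pdia3, part of the peptide-loading complex, changed by -0.44 ± 0.07 (adjusted p = 0.0013) and Calr, calreticulin, by -0.31 ± 0.07 (0.013). The count was 4 without unfasted mutant replicate 1. Erap1, which trims peptides, fell in fasted mutants by 0.26 ± 0.08 on the log2 scale (adjusted p = 0.043), and Pdia3 fell by 0.29 ± 0.07 on fasting in heterozygotes (0.041). B2m, the light chain of class I, stayed between 12.90 and 13.23 and differed by -0.12 ± 0.05 and -0.10 ± 0.05 without a call. H2-K1 was not analysed here.

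The class II genes, which present peptides to CD4+ T cells, had calls in 1 direction. In fasted mutants 5 of 8 rose and none fell, with a median of 0.78. H2-Aa, a class II chain, rose by 1.04 ± 0.27 (2.06-fold, adjusted p = 0.018), Cd74, the invariant chain, by 0.87 ± 0.25 (0.032), Ifi30, a thiol reductase of lysosomes, by 0.80 ± 0.16 (0.0046) and H2-Ab1 by 0.79 ± 0.21 (0.020). In unfasted mutants Ifi30 alone rose, by 0.67 ± 0.16 (adjusted p = 0.017). None of the 8 was called on fasting in either genotype.

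Among 14 subunits of the constitutive proteasome, Psma3, Psmb7 and Psmb3 fell in unfasted mutants, by 0.35 ± 0.09, 0.27 ± 0.07 and 0.17 ± 0.05 on the log2 scale (adjusted p = 0.023, 0.038 and 0.037). There were 5 without unfasted mutant replicate 1. In fasted mutants Psmb5 rose by 0.21 ± 0.06 (adjusted p = 0.022). On fasting in mutants 3 rose, led by Psmb4 at 0.25 ± 0.06 (adjusted p = 0.041), and 8 without that array, where calls over all genes went from 667 to 1941.

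Markers of other liver cells moved with genotype. Of 15 macrophage markers none was called in the unfasted comparison (median 0.27) and 11 rose in the fasted one (median 0.64), led by Vsig4 at 0.91 ± 0.20, C1qc at 0.84 ± 0.19 and Clec4f at 0.82 ± 0.16. Their mean per array was 8.50 to 8.97 in heterozygotes of either state, 8.70 to 9.34 in unfasted mutants and 9.18 to 9.50 in fasted mutants. Of 10 endothelial markers 6 rose unfasted and 7 fasted, and of 10 stellate cell markers 7 and 3. Among 13 T and natural killer cell markers none was called unfasted and Cd3d alone fell in the fasted state. Of 6 B cell markers Ms4a1 rose in the fasted state, and in the unfasted state Clec9a of 9 dendritic cell markers (Bst2 is among them) and S100a9 of 9 neutrophil markers rose. Leaving out unfasted mutant replicate 1 changed the unfasted dendritic calls to Cd209a and Itgax, put Lrat out and Col1a2 in among the stellate calls, and added Ccr2 as the 1 macrophage call. Siglech, a marker of plasmacytoid dendritic cells, stayed between 7.18 and 7.82. On the RMA scale no marker has a true 0. The part of these shifts in the class II and interferon gene values was not tested. In a whole liver a change in the number of cells of a type and a change in RNA per cell cannot be told apart. Unfasted mutant replicate 3 had the lowest hepatocyte mean of all arrays (12.74, against 12.88 to 13.04 elsewhere). Its means were the highest for class II genes (9.44) and for B cell (7.02) and T and natural killer cell markers (6.59). They were also the highest for dendritic cell (7.54, without Bst2) and stellate cell and fibroblast markers (9.42). Its macrophage (9.29), endothelial (9.98) and neutrophil (6.34) means were not the highest. This array was the highest of its group for 17 members and overlapped the heterozygotes for Tap1 and Rtp4. Whether these are linked was not tested.

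**Figure D4:**
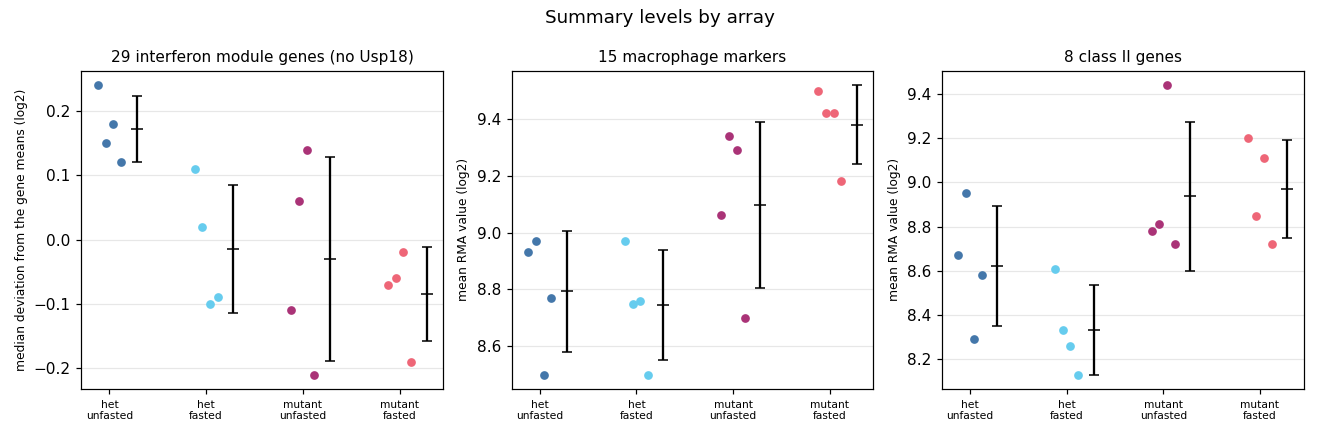
Summary level of each array by group, with mean ± SD: median deviation of 29 members (without Usp18) from their gene means, mean of 15 macrophage markers and mean of 8 class II genes, all on the log2 scale. The members are highest in unfasted heterozygotes (0.12 to 0.24), whereas macrophage markers are highest in fasted mutants (9.18 to 9.50).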

How the data were processed

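Liver RNA of 16 mice was measured on 16 Affymetrix mouse gene arrays, with 300 ng labelled for each, per the labels' protocols. The authors deposited 1 table of RMA values made with Affymetrix Expression Console, per the submitters' processing notes. The deposited values were taken to be log2 from their range of 3.80 to 14.33. Versions, build and filters: not given in the sources used here. RMA quantile-normalizes arrays, which can hide a shift shared by most genes. Arrays of a group correlated at 0.986 to 0.998 and none were identical. The number of arrays limits the precision.

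Of 35556 probe sets, 21789 had 1 gene symbol, 1621 several and 12146 were not listed. Symbols were updated by gene number (21698 matched, 91 kept). The brightest probe set stood for each gene, which left 19938 genes with no filter on dim ones.

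With 1 mean per group, all 16 arrays entered a fit in limma 3.58.1 in R 4.3.3 (trended eBayes, two-sided), with Benjamini-Hochberg adjustment over all genes. An adjusted p under 0.05 is a call, and ± after a difference is the standard error. The script was tested on simulated data. The replicate numbers were not used as pairs. Values in all arrays are given for called members and Irf7. From other lists at most 4 called genes with the largest difference in a comparison are named, plus Ifnar1, Ifngr1, Ifnb1, Ifng and B2m, with up to 3 leading markers per cell type. Any member may be named. Siglech, Ifi27l2a, Ifitm3 and the markers whose calls changed without 1 array were named after their values were seen. The rule covers another gene, not reported here. The members, lists and tests were chosen with earlier results of these data known. As alternatives, the replicate number was a block, each comparison used its own 8 arrays alone, and the rest were centred or requantiled arrays, array weights, other variance settings, the mean over probe sets, bright genes only, and leaving out each array. Counts of other lists without unfasted mutant replicate 1 were added after seeing the data.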

Additional observations from a re-analysis of the deposited data

Results flagged for a closer look

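In 120 sets of 4 arrays (30 members in 4 groups), 1 array stood far from the other 3 in 8, where chance gives about 6. Usp18 read 9.13 in unfasted mutant replicate 2, against 10.06 to 10.21 in the rest of its group, and was still above every heterozygous array. Unfasted heterozygous replicate 2 was low for Ifih1 (9.18 against 9.65 to 9.70) and Psmb9 (9.03 against 9.17) and high for Xaf1 (7.64 against 7.44 to 7.46). Fasted mutant replicate 4 was low for Ifit3 (7.94 against 8.55 to 8.63). Fasted heterozygous replicate 1 was high for Zbp1 (8.33 against 7.86 to 7.92), and replicate 3 of that group was low for Mx1 (5.57 against 5.69 to 5.71). Bst2 read 9.80 in unfasted mutant replicate 4, against 9.40 to 9.45. No cause was tested.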

How the results depend on the processing

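No called member changed direction under an alternative that measured it. There were 25 alternatives, of which the one with bright genes alone measured 22 members and left out Dhx58 and Psmb8. Ifit1, Irgm1 and Usp18 in the unfasted and Irgm1 and Usp18 in the fasted genotype comparison kept their calls under all 25, and unfasted Dhx58 under the 24 that measured it. With the replicate number as a block, 7 members were called in the unfasted comparison, 5 in the fasted one, 3 on fasting in heterozygotes and 1 in mutants, against 7, 3, 1 and 1. The groups hold separate mice, so the numbers were not taken as pairs. Same-numbered arrays had r of -0.12 to 0.25, over 0.1 in 9 of 24 pairs. In 19 of 48 choices among the 4 arrays of another group, the best correlation was with the own number. Whether arrays with the same number share a condition was not tested. Fitting only the 8 arrays compared gave 4, 5, 1 and 0 members. A second quantile normalization gave 6 in the fasted comparison and 2 on fasting in mutants. Array weights gave 4 on fasting in heterozygotes and 0 in mutants, and bright genes alone 0 in mutants, where Dhx58, the called member, had been filtered out. Psmb9 gained a call unfasted with centred arrays or weights. In the fasted comparison Ifit1 gained one with the block, centred or requantiled arrays, weights and bright genes. Ifit2 did with the block or requantiled arrays, Parp9 with requantiled arrays, and Mx2 and Oasl2 with only the 8 arrays. On fasting in heterozygotes Ifit1 and Ifit3 did with the block, and Ddx58, Ifih1 and Trim25 with weights. In mutants Bst2 did with requantiled arrays. Leaving out 1 array gave 5 to 8, 2 to 4, 0 to 1 and 0 to 2. The interaction gave 0 members under the 24 alternatives in which it could be fitted. Over all genes, 1584 were called in the unfasted comparison, 764 with only its 8 arrays and 698 to 1781 leaving out 1. In the fasted one 2716 were called, and 1575 to 3180 leaving out 1. On fasting in heterozygotes 313 became 568 with only 8 arrays, 1029 with weights and 155 to 358 leaving out 1. In mutants 667 became 33 with only 8 arrays and 224 to 1941 leaving out 1, the highest without unfasted mutant replicate 1. The interaction's 2 became 0 to 6. The causes were not tested. Genes near background can have understated changes.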
